A study of Capra hircus with 2 samples.

Results

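The let-7 and miR-98 family is a group of microRNAs (miRNAs) that share 1 seed, the 7 nt from nt 2 to nt 8 by which a miRNA pairs with its targets. Its 9 members studied here were let-7a, let-7b, let-7c, let-7d, let-7e, let-7f, let-7g, let-7i and miR-98. A tag, which is a distinct read sequence with its number of reads, was counted to the family when it was 18 to 26 nt long and held nt 2 to 17 of a member. It was given to the member that it matched without mismatch over the whole overlap. The family held 2525 of 466727 tags in the peak lactation library and 2101 of 259250 in the late lactation library, and 3303 of the 659118 tags found in either library. All 9 members were detected in both libraries, and each exceeded the minimum of 1 read per 1000000 clean reads (RPM).

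The tissue was mammary gland of Laoshan dairy goats (Capra hircus), aged 4 years and in the third lactation, taken by surgery at peak lactation, 90 days after kidding, or at late lactation, 210 days after kidding. Each stage was represented by a pool of RNA from 5 goats, from which 1 library of small RNA was sequenced, and the sources used here do not state plainly whether the same goats gave both pools. The comparison asks which miRNAs differ in level between full and declining milk production. With 1 pooled library per stage there was no replicate, so every ratio compared the reads of a pair of libraries, and the variation between goats was not measured. In whole tissue, fewer cells of a type and less miRNA per cell cannot be told apart.

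The let-7 miRNAs are among the most abundant miRNAs of differentiated animal tissues and are known to hold back the growth regulator HMGA2, the RAS proteins and the RNA-binding protein LIN28. LIN28 in turn binds let-7 precursors and blocks their maturation. Drosha and Dicer cut the mature strand from a hairpin precursor, and its 3′ end can afterwards be trimmed or extended by added A or U bases. Forms of 1 miRNA that differ in their ends are called isomiRs.

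The mature 22-nt sequences of the members are shown because all later counts rest on them. That of let-7a was read from the libraries, as the most abundant 22-nt tag with the seed. The others were written from it by their known bases, and each was then found as a tag in both libraries. Capitals mark the seed (nt 2 to 8), which all 9 share, and U is written as T.
let-7a: tGAGGTAGtaggttgtatagtt
let-7b: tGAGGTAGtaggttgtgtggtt
let-7c: tGAGGTAGtaggttgtatggtt
let-7d: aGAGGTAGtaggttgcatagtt
let-7e: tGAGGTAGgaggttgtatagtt
let-7f: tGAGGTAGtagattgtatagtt
let-7g: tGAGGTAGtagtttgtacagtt
let-7i: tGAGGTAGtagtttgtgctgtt
miR-98: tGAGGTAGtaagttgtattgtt

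Counted from 1 at the 5′ end of let-7a, let-7c differed from let-7a by A19G, let-7e by T9G and let-7f by G12A. let-7b carried A17G and A19G, let-7d carried T1A and T16C, let-7g carried G12T and T18C, and miR-98 carried G11A and A19T. let-7i was the most distant, with G12T, A17G, T18C and A19T. Since 3 members lay a single base from let-7a, a read error in the abundant let-7a could be counted to them. The 36 single substitutions at nt 9 to 21 of the let-7a tag that spell no member were therefore counted to gauge such errors. Their median was 0.0104% of the let-7a tag at peak and 0.0118% late, and the highest, A17G, reached 0.112% and 0.114%. Some of them also lie a single base from another member, as A17G does from let-7b, so they can hold read errors of that member too. The 22-nt tags of let-7e stood at 0.840% and 1.06% of the let-7a tag, those of let-7c at 16.1% and 16.2%, and those of let-7f at 38.0% and 66.3%. All 3 were above every one of these 36 substitutions in both libraries.

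The isomiRs of let-7i and miR-98 are shown because their 3′ ends gave the largest differences between the libraries within the family. Capitals mark the bases after nt 20. The mature sequence of both ends in T at nt 21 and T at nt 22.
let-7i to nt 21: tgaggtagtagtttgtgctgT
let-7i to nt 22: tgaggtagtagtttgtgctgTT
let-7i to nt 21, then A: tgaggtagtagtttgtgctgTA
let-7i to nt 22, then A: tgaggtagtagtttgtgctgTTA
let-7i to nt 22, then T: tgaggtagtagtttgtgctgTTT
miR-98 to nt 21: tgaggtagtaagttgtattgT
miR-98 to nt 22: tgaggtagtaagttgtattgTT

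The peak library held 19044002 clean reads and the late library 7385833, so a single read stood for 0.0525 RPM and 0.135 RPM, respectively. The filters discarded 0.0494% of the high-quality reads of the peak library as 5′ adaptor contaminants against 14.0% of those of the late library, and 0.759% against 4.14% as shorter than 18 nt. Over all clean reads, tags of 20 nt made up 12.4% in peak and 25.2% in late lactation, and tags of 22 nt made up 41.8% and 35.7%. These differences between the libraries lie beside every result below, and their part in them was not tested. All intervals given are 95% intervals of exact binomial (Clopper-Pearson) form and cover counting error only.

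The family took 4050488 reads at peak, 21.3% of all clean reads, and 1168508 reads late, 15.8%. Its level was 212691 RPM at peak and 158209 RPM late, with a log2 ratio of late over peak of -0.43 (-0.43 to -0.42). Reads given to 1 member made up 95.2% of the family at peak and 95% in late lactation. Reads that fitted both let-7a and let-7c numbered 11328 and 2335 and were kept apart. Reads with a mismatch to every member made up 4.54% and 4.77% of the family. Of these mismatched reads, 91.0% and 90.5% matched a member to nt 19 or beyond and then carried a tail of at most 4 other nt. A tail of A alone made up 70.1% of the mismatched reads at peak and 73.0% in late lactation.

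The levels of let-7a, let-7b, let-7c and let-7e were lower in the late library, while those of let-7d, let-7f, let-7i and miR-98 were higher. That of let-7g was almost the same. A member counted as changed where its level differed at least 2-fold and the Audic-Claverie formula gave P below 0.01. The formula is the one the study used, applied here to read counts, and it takes counting as the only error. None of the 9 members was called in either direction. By the same rule 32.1% of the 11602 groups of tags sharing nt 2 to 17 were called higher in late lactation and 27.5% lower. At this depth P fell below 0.01 for all 9 members, and the size of the ratio alone kept them from the call. At 1.5-fold, 3 members would have passed, let-7a, let-7c and let-7d. The share of all groups of tags that pass at 1.5-fold was not counted, so this number has no background beside it. The median log2 ratio was -0.02 over the 9 members, 0.06 over all groups of tags tested, and -0.05 over the 267 groups with at least 100 RPM in both libraries.

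**Figure D1:**
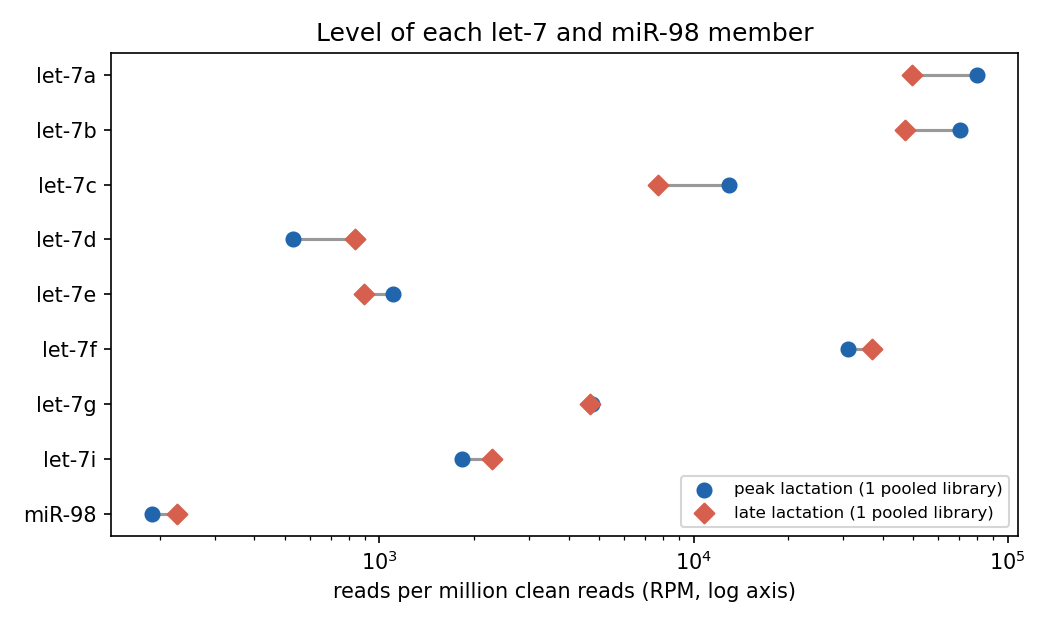
Level of each member in RPM on a log axis, with circles for the peak lactation library and diamonds for the late lactation library. let-7a, let-7b and let-7c lie to the left of their peak value in late lactation, let-7d to the right, and the points of let-7g (4745 and 4671 RPM) nearly coincide.

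let-7a, the most abundant member, had 1516493 reads at peak and 367414 in late lactation. Its level was 79631 RPM and 49746 RPM, a log2 ratio of -0.68 (-0.68 to -0.67). let-7b stood next, at 70325 RPM and 47126 RPM, with a log2 ratio of -0.58 (-0.58 to -0.57). These members lead the family in both libraries. Their genes are neighbours in the goat RefSeq annotation, but which gene the reads came from was not tested.

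let-7c had the lowest ratio of the 9 members. Its level was 12964 RPM at peak (246894 reads) and 7687 RPM late (56775 reads), with a log2 ratio of -0.75 (-0.77 to -0.74). The reads that fitted both let-7a and let-7c showed a log2 ratio of -0.91 (-0.98 to -0.85). let-7e, whose gene lies near that of miR-99b, was at 1104 RPM and 896 RPM, a log2 ratio of -0.30 (-0.34 to -0.26).

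let-7f was the third member by level, at 31127 RPM (592778 reads) in peak and 36870 RPM (272319 reads) in late lactation. Its log2 ratio was 0.24 (0.24 to 0.25), opposite in sign to let-7a, let-7b and let-7c. let-7d, whose gene neighbours that of let-7f, had the highest ratio of the family. Its level was 530 RPM from 10088 reads at peak and 837 RPM from 6182 reads late, with a log2 ratio of 0.66 (0.61 to 0.71).

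let-7g, whose gene lies within WDR82, was almost level between the libraries, at 4745 RPM and 4671 RPM, with a log2 ratio of -0.02 (-0.04 to -0.0047). let-7i was at 1831 RPM and 2289 RPM, a log2 ratio of 0.32 (0.30 to 0.35). Many let-7i reads with a tail of A after nt 20 or nt 21 count as mismatched, and with reads of 1 mismatch added the ratio was 0.10. miR-98, whose gene lies within HUWE1, was the least abundant member. It had 3605 reads at peak and 1675 in late lactation, or 189 RPM and 227 RPM, with a log2 ratio of 0.26 (0.18 to 0.34), or 0.09 with reads of 1 mismatch added.

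By level the order at peak was let-7a, let-7b, let-7f, let-7c, let-7g, let-7i, let-7e, let-7d and miR-98, and the order in late lactation was the same. The distances between members were not. let-7a had 2.56 times the reads of let-7f at peak and 1.35 times in late lactation. let-7e had 2.08 times the reads of let-7d at peak and 1.07 times in late lactation. Between the ends of the order, let-7a had 421 times the reads of miR-98 at peak and 219 times in late lactation. With 1 library per stage, no spread between animals was available against which to set these distances.

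The shares of let-7a, let-7b and let-7c were lower in late lactation and that of let-7f was higher. Of the reads given to 1 member, let-7a held 39.3% (39.3 to 39.4) at peak and 33.1% (33.0 to 33.2) in late lactation. let-7b held 34.7% and 31.3%, and let-7c held 6.40% and 5.11%. let-7a, let-7b and let-7c, grouped after their ratios were seen, together held 80.5% at peak and 69.5% in late lactation. The share of let-7f was 15.4% (15.3 to 15.4) at peak and 24.5% (24.4 to 24.6) in late lactation. The 3 leading members by level, let-7a, let-7b and let-7f, thus held 89.4% and 89.0%.

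The shares of the other members were also higher in the late library. That of let-7d was 0.262% at peak and 0.557% late, with a log2 ratio of shares of 1.09 (1.04 to 1.14), the largest of the family. let-7g held 2.34% and 3.11%, let-7i 0.904% and 1.52%, and miR-98 0.0935% and 0.151%. let-7e held 0.545% and 0.596%, a log2 ratio of shares of 0.13 (0.09 to 0.17), although its level was lower. Shares within the family do not depend on how the libraries were scaled, but they sum to a fixed total, so a lower share of let-7a raises the others.

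**Figure D2:**
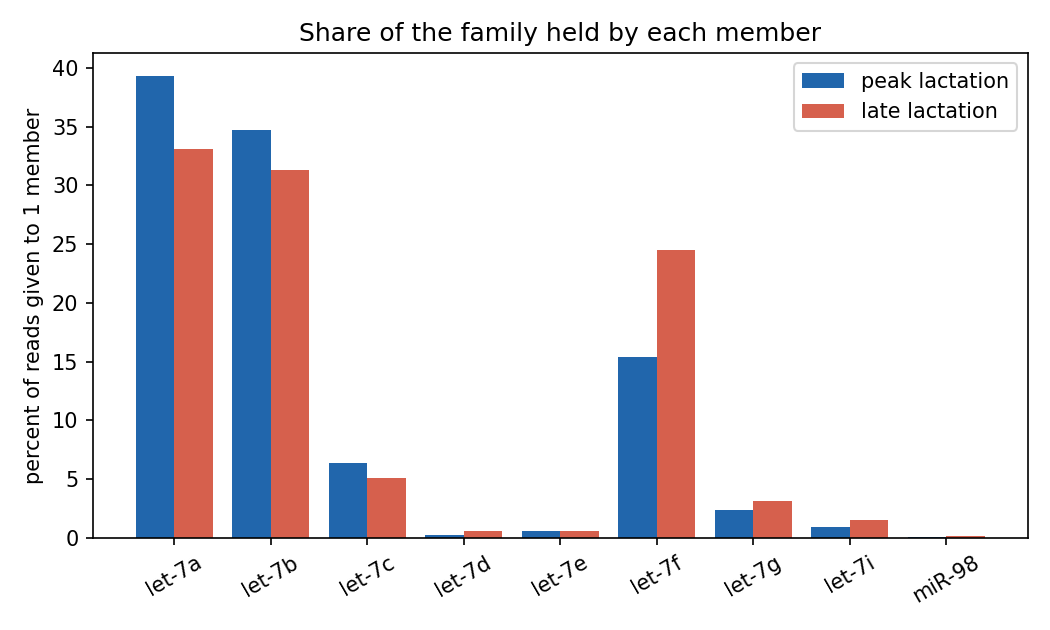
Share of the reads given to 1 member, in percent, that each member held, with bars for the peak and the late lactation library. let-7a and let-7b together held 74.1% at peak and 64.4% in late lactation, and the bar of let-7f stands at 15.4% and 24.5%.

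Tags that started at nt 1 made up 98.1% to 99.9% of the reads of each member in both libraries. Tags that start at nt 3 or later could not enter, since a tag had to hold nt 2 to 17. The share of tags with further bases before nt 1 was higher in late lactation in all 9 members, at 0.144% (0.140 to 0.148) of their reads at peak and 0.329% (0.318 to 0.340) late. The like share was not counted over the other small RNAs, so whether this difference is particular to the family was not tested. Within the family, the share was 0.317% (0.217 to 0.448) and 1.63% (1.33 to 1.98) in let-7d, and 0.0545% (0.0328 to 0.0851) and 0.905% (0.768 to 1.06) in let-7i.

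The 3′ ends differed more. Over all members, reads that ended before nt 22 made up 22% at peak and 33.4% in late lactation, a difference of 11.4 points. Reads that ended at nt 22 made up 64.4% and 57.2%, and reads that ran past it 13.6% and 9.36%. Of all clean reads outside the family, tags of 20 nt made up 14.3% at peak and 28.5% in late lactation, and tags of 21 nt 8.18% and 7.73%. Whether the higher share of short reads is particular to the family was not tested. The mean length of the reads of all members was 21.87 nt and 21.68 nt. It was shorter in late lactation in 8 of 9 members, by up to 0.36 nt in let-7e (21.96 and 21.60 nt), and 0.01 nt longer in miR-98. These lengths leave out mismatched reads. In groups of tags, which include mismatched tags, the mean length for miR-98 was 21.71 nt at peak and 21.66 nt late (-0.05 nt). The groups of all the other members were shorter in late lactation as well. Among 250 such groups with at least 1000 reads in each library, 38.8% were shorter by at least 0.1 nt in late lactation. The median difference was -0.04 nt.

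In 7 of 9 members, the share of reads that ended before nt 22 was higher in late lactation. let-7d gave the largest difference, with 28.3% at peak and 46.5% in late lactation. let-7e followed with 28.8% and 45.9%, and let-7f with 25.0% and 39.6%. let-7a had 21.1% and 30.9%, let-7b 21.6% and 32.8%, let-7c 20.5% and 28.3%, and let-7g 16.7% and 21.8%. The other members, let-7i and miR-98, went the opposite way, let-7i with 41.3% and 30.4% and miR-98 with 61.7% and 45.6%. All these shares leave out mismatched reads, which weigh unequally in the libraries. In let-7i, 8990 reads at peak and 1567 late matched to nt 21 and went on with A, beside 34865 and 16909 counted. In miR-98 there were 615 and 113 such reads, beside 3605 and 1675 counted.

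**Figure D3:**
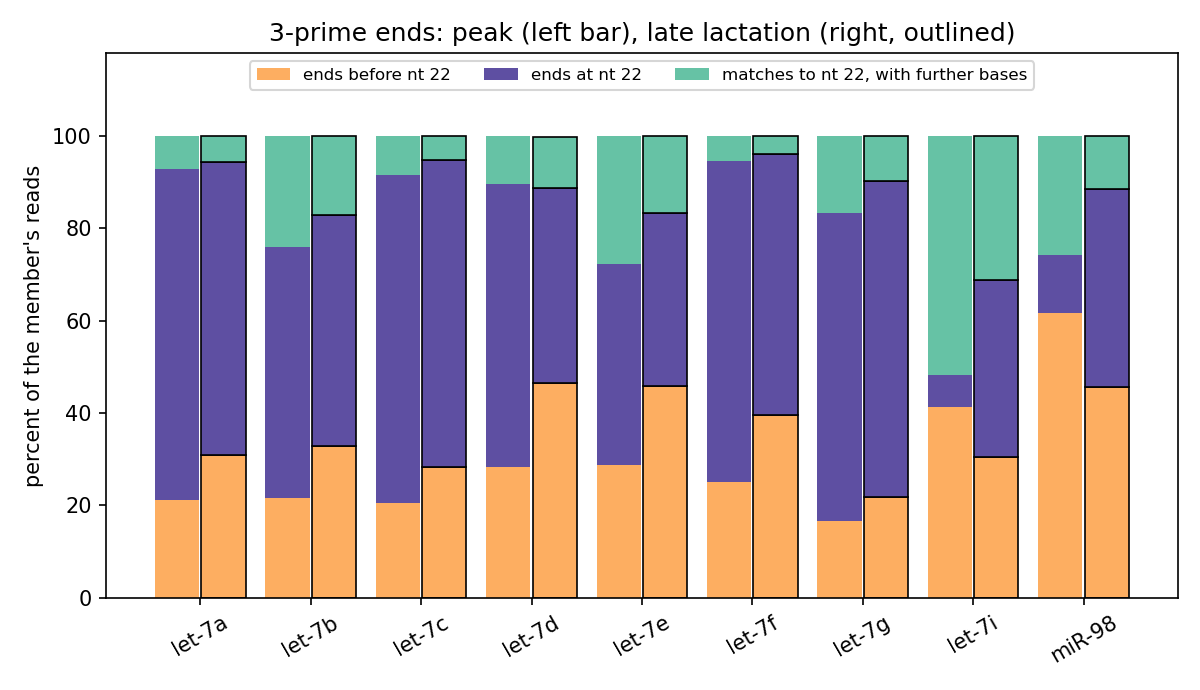
Percent of each member's reads that end before nt 22, end at nt 22, or match to nt 22 and carry further bases, with the peak library as the left bar and the late library as the outlined right bar. Mismatched reads are left out. The part that ends at nt 22 widens from 6.97% to 38.5% in let-7i and from 12.5% to 42.9% in miR-98, and narrows in let-7a (71.7% to 63.4%), let-7d (61.3% to 42.3%) and let-7f (69.7% to 56.6%).

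The forms that ended at nt 21 and nt 22 went apart within a member. In let-7a, reads to nt 21 were at 12254 RPM and 11623 RPM (log2 ratio -0.08), while reads to nt 22 were at 57072 RPM and 31522 RPM (-0.86). In let-7f, reads to nt 21 were at 6318 RPM and 11921 RPM (0.92), while reads to nt 22 were at 21681 RPM and 20884 RPM (-0.05). The higher level of let-7f thus lay in its shorter forms. In let-7d, reads to nt 21 were at 112 RPM and 283 RPM (1.34), past the 2-fold limit, and reads to nt 22 at 325 RPM and 354 RPM (0.13).

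Single tags can be called by the same rule, and of all 26175 tags with at least 1 RPM in either library 27.5% were called higher in late lactation and 34.5% lower. Of the 9 mature 22-nt tags, 2 were called higher, those of let-7i and miR-98, and 0 lower. Among the tags that start at nt 1 and end at nt 21, 1 of 9 was called higher, that of let-7d, with 2113 reads at peak and 2045 in late lactation (log2 ratio 1.32, 1.23 to 1.41). The tag of let-7d to nt 20 was also called higher, with 681 and 590 reads (log2 ratio 1.16).

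The 22-nt let-7i tag rose most. It had 2425 reads (127 RPM) at peak and 6407 reads (867 RPM) late, with a log2 ratio of 2.77 (2.70 to 2.84), or 6.81-fold. The 21-nt tag of let-7i had 12618 and 4532 reads (log2 ratio -0.11, -0.16 to -0.06), so a form 1 nt shorter differed little. The leading let-7i tag was thus the 21-nt form at peak, with 36.2% of the member, and the 22-nt form in late lactation, with 37.9%. Without the reads that end at nt 22, let-7i was at 1703 RPM and 1407 RPM, a log2 ratio of -0.28 (-0.31 to -0.24) in place of 0.32.

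The 22-nt miR-98 tag had 449 reads at peak and 709 late, with a log2 ratio of 2.03 (1.85 to 2.20), or 4.07-fold. The 21-nt tag of miR-98 had 2132 and 717 reads (log2 ratio -0.21, -0.33 to -0.08) and was the leading form in both libraries, with 59.1% and 42.8% of the member. Without the reads that end at nt 22, miR-98 was at 166 RPM and 130 RPM, a log2 ratio of -0.36 (-0.46 to -0.25) in place of 0.26. In both members the sign of the ratio thus rested on the form that ends at nt 22. That form was left out after its higher level was seen, so a lower ratio without it was bound to follow.

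**Figure D4:**
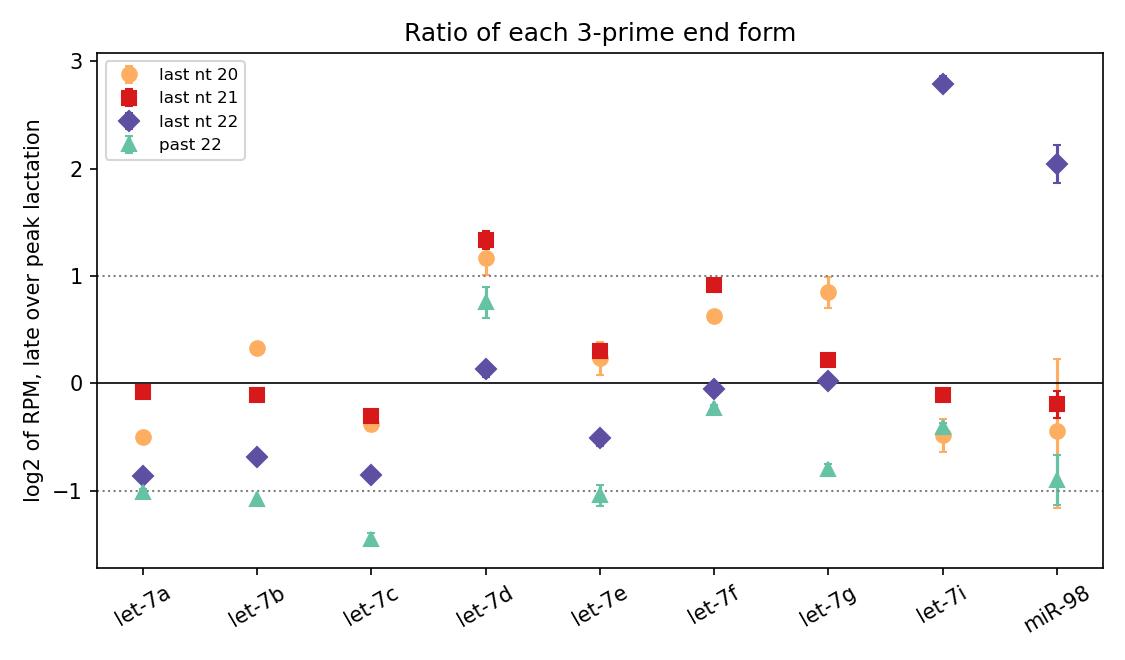
Log2 ratio of RPM, late over peak lactation, of the reads of each member that end at nt 20, 21 or 22 or run past nt 22, with 95% counting intervals and dotted lines at 2-fold. The reads to nt 22 of let-7i (2.79) and miR-98 (2.04) lie far above the other forms, and in the other 7 members the reads to nt 22 and beyond lie below those to nt 21.

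The let-7i reads that did not start at nt 1 differed in the same direction. Of these, 5 of 72 (6.94%, 2.29 to 15.5) ended at nt 22 at peak and 108 of 198 (54.5%, 47.3 to 61.6) in late lactation, against 6.97% and 38.3% of those that started at nt 1. The reads with another start were not alike in kind, however. At peak 53 started at nt 2 and 19 before nt 1, and in late lactation 45 and 153. Their shares thus do not compare like reads between the libraries. In miR-98 such reads were few, 0 of 7 at peak, which allows a share of up to 41.0% (the upper end of its interval), and 9 of 19 in late lactation.

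To set these members beside the other small RNAs, tags were grouped by nt 2 to 17 and the share of 22-nt tags was compared between the libraries, mismatched tags included. The 22-nt share was at least 20 points higher in late lactation in 12 of 250 groups (4.80%), a limit chosen after the values were seen. let-7i, with 15.4% and 39.8%, and miR-98, with 22.9% and 44.8%, were among the 12, at ranks 8 and 10. let-7g was 1.8 points higher, and the groups of the other members were lower, with differences of -18.3 to -4.0 points. let-7a and let-7c are alike from nt 2 to 17, so they fall into the same group (-7.8 points) and cannot be told apart here. The median over all 250 groups was -0.4 points.

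The bases that followed nt 21 and nt 22 were then counted, mismatched tags included. Of the let-7i reads that matched to nt 21, 29.9% ended there at peak and 25.4% in late lactation, 21.3% and 8.74% went on with A, and 48.5% and 65.7% with T, the mature base. Of those that matched to nt 22, 11.9% ended there at peak and 55.4% in late lactation, 51.3% and 22.6% went on with A, and 29.7% and 19.3% with T. A was thus the most frequent base after nt 22 in both libraries. Going on with A was the most frequent outcome at peak, and an end at nt 22 in late lactation. Whether a base past nt 22 was cut from the precursor or added later cannot be told apart from the tags, since no precursor sequence was used here.

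The let-7i tags with a tail of A had lower levels in late lactation. The tag to nt 21 followed by A had 4281 reads at peak and 922 in late lactation (log2 ratio -0.85, -0.95 to -0.75), and the tag to nt 22 followed by A had 7763 and 2205 (-0.45, -0.52 to -0.38). With AA the tags fell past the 2-fold limit, from 3386 to 393 reads after nt 21 (-1.74, -1.89 to -1.59) and from 1322 to 180 after nt 22 (-1.51, -1.74 to -1.28). The tag to nt 22 followed by T had 5242 and 2095 reads (0.04, -0.03 to 0.12).

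In miR-98, too, a smaller share went on with A in late lactation. Of its reads that matched to nt 21, 14.8% at peak and 6.45% in late lactation went on with A. Of those that matched to nt 22, 32.5% ended there at peak and 78.7% in late lactation, while 33.0% and 10.5% went on with A and 21.3% and 7.13% with T. In let-7a, by comparison, 90.9% and 91.7% of the reads that reached nt 22 ended there, and in let-7g 80.0% and 87.6% did. Only in let-7d was this share lower in late lactation, with 85.8% and 79.3%, while 5.02% and 10.7% went on with A. The share with A after nt 22 was also slightly higher in let-7a, let-7e and let-7f, and lower in let-7b, let-7c and let-7g.

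Reads past nt 22 made up a lower share in late lactation in 8 of 9 members, and let-7d was the exception with 10.4% and 11.1%. Of all clean reads outside the family, tags of 23 nt made up 21.3% at peak and 14.0% in late lactation. The leading base after nt 22 differed among members. In let-7b, 24.1% of reads ran past nt 22 at peak and 17% in late lactation, and its leading form with 1 further base was T, with 184498 and 30277 reads (log2 ratio -1.24, -1.26 to -1.22). In let-7e, 27.9% and 16.7% ran past nt 22, and the leading further base was G, with 3594 and 525 reads (-1.41, -1.54 to -1.28).

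In let-7g the leading further base was T, with 8976 and 1480 reads (log2 ratio -1.23, -1.31 to -1.15). Over the family, the tag to nt 22 followed by T was called lower in 4 of 9 members, let-7a, let-7b, let-7c and let-7g, and higher in 0. The tag to nt 22 followed by G was also called lower in 4 members and higher in 0. The tag to nt 21 followed by AA was called lower in 4 and higher in 1, and the tag to nt 22 followed by AA lower in 3 and higher in 0. The tag to nt 22 followed by A was called lower in 1 member, let-7c, and higher in 1, let-7d. These counts stand beside 34.5% of all single tags called lower and 27.5% called higher.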

How the data were processed

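Small RNA libraries of mammary gland were analysed, 1 pooled library per stage. The authors filtered and trimmed the reads, collapsed identical reads and deposited the counts of each distinct tag, not normalized. For the tools of these steps, versions were not given in the sources used here. Here each count was set relative to its library's clean reads (19044002 and 7385833) as RPM. A count of 0 would allow 3 reads, or 0.158 and 0.406 RPM, by counting error only.

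The members and lists were chosen with earlier results of these data known. All 9 members are named, with their mature tags and leading tags. No table of mature miRNAs was used: let-7a was taken as the most abundant 22-nt tag with the seed at nt 2 to 8, and the others by their known bases at the positions given. RefSeq genes (assembly ARS1.2) gave gene neighbours only, for all 9 members. Each member had 1 entry there, and no read was assigned to a gene. The let-7 3p arms and the cluster neighbours miR-99, miR-100 and miR-125 were not analysed here, and the sums were not compared with the study's own counts of named miRNAs.

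Calls needed 2-fold and Audic-Claverie P below 0.01, a comparison of the reads of 2 libraries. The assignment of tags was tested on tags made from the member sequences, and the call rule on simulated counts with counting error only. These tests do not measure the variation between goats. The ratios without reads ending at nt 22, the single-tag forms and the bases after nt 21 and nt 22 were chosen after the data were seen. Scaling factors came from edgeR 4.0.16 and DESeq2 1.42.0, which ran no test. Calculations ran in R 4.3.3 and Python 3.11.15 with scipy 1.17.1, pandas 2.3.3, numpy 2.4.6 and matplotlib 3.10.9.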

Additional observations from a re-analysis of the deposited data

Results flagged for a closer look

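Tags longer than 26 nt that held nt 2 to 17 of a member lay outside the lengths counted to the family. They numbered 1657 reads at peak and 605 reads late, or 87.0 and 81.9 RPM, above the limit of 3 reads that a count of 0 allows. They made up 0.0409% and 0.0518% of the reads of the family. These reads were spread over 1084 and 435 tags of 27 to 44 nt, and the leading tag held 48 and 11 reads.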

How the results depend on the processing

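The log2 ratio of the family kept its sign and stayed within 2-fold under all 12 alternatives, at -0.60 to -0.34. Giving reads of 1 mismatch to their nearest member, or dividing reads that fitted both let-7a and let-7c between them, leaves the family total unchanged. These alternatives could therefore not move the family ratio. Of 108 recomputed log2 ratios of the 9 members, 103 kept their sign and their side of the 2-fold limit. Among these, the division between let-7a and let-7c could alter only those members. With reads of 1 mismatch added, let-7i was 0.10 and miR-98 0.09. With the tag identical to the mature sequence only, let-7f turned to -0.06 and let-7g to 0.0085, and let-7i (2.77) and miR-98 (2.03) passed the limit, so that 2 members were called in place of 0. With 1.5-fold in place of 2-fold, 3 were called, a limit at which the groups of tags were not counted. With totals that left out the 10 leading tags of either library, let-7g turned to 0.06, since every log2 ratio shifted by 0.085; the other scalings shifted it by at most 0.025 in size. Without reads ending at nt 22, an alternative chosen after the data were seen, let-7i was -0.28, miR-98 -0.36 and let-7d 1.23, past the limit. The share of let-7a, let-7b and let-7c, late minus peak, was -10.9 points, and -10.1 with the identical tag only. Reads ending before nt 22 differed by 11.4 points, by 6.3 as a mean over members, in which let-7i and miR-98 weigh as much as let-7a, and by 12.5 without let-7a, let-7b and let-7c.

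The background called 6905 of 11602 groups of tags, 53.9% of them higher. With no minimum it called 11123 of 403023 (67.9% higher), and with a minimum of 10 RPM 1760 of 2809 (40.3% higher). No replicate could be left out, since each stage had 1 library, and depth was lowest for miR-98 and its forms, with 1675 reads in late lactation.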
